A study of Homo sapiens with 12 samples.

Results

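The chaperones and proteases of the mitochondrion were followed in SW1783 cells, a human astrocytoma line, exposed for 24 h to an extract of Aconitum carmichaeli Debeaux (ACD) made in water. The 10 genes were named for their link to the mitochondrial unfolded protein response, and the rule that picks them uses no threshold on a measured value. They are the chaperones HSPD1, HSPE1, HSPA9, DNAJA3 and TRAP1 and the protease genes LONP1, CLPP, CLPX, AFG3L2 and YME1L1. All 10 were found among the 60675 gene IDs of the deposited RNA-seq table, of which 30808 had a count in at least one library. There were 4 groups of 3 libraries, given vehicle (phosphate-buffered saline with 2% DMSO) or the extract at 20 (low), 100 (medium) or 500 µg/mL (high dose). By the paper's methods the extract stock was made in the same solvent, and 2% is the DMSO of the solution added, not of the culture medium. All groups were the same unmodified line. The name of the extract rests on the sample titles and treatment labels, because the protocol text in the same labels describes another herb, Poria cocos. The labels number the libraries within a group but do not say that they came from separate cultures, so the tests measure the spread between these libraries, which may be technical.

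Most mitochondrial proteins are made in the cytosol, enter the organelle unfolded and are pulled in and folded there by chaperones, while ATP-driven proteases remove those that fail to fold or assemble. HSPA9 (mortalin) is the HSP70 of the matrix and the motor of import, GRPEL1 and GRPEL2 exchange its nucleotide, and DNAJA3 is one of its J-domain partners. HSPD1 (HSP60) and its lid HSPE1 (HSP10) form the matrix folding chamber, and TRAP1 is the mitochondrial HSP90. LONP1 degrades soluble matrix proteins, CLPX unfolds substrates for the CLPP peptidase, and AFG3L2 and YME1L1 are membrane-anchored proteases that face the matrix and the intermembrane space. When unfolded protein builds up in the mitochondrion, cells are known to raise nuclear genes of this set, and in mammals the factors ATF4, DDIT3 (CHOP) and ATF5 and the heat shock factor HSF1 have been linked to that response.

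HSPD1 and HSPE1 lie head to head on chromosome 2 and share a promoter, so the DNA between their starts is shown first. The start of HSPE1, on the plus strand, lay 105 bases from the nearest RefSeq start of HSPD1, on the minus strand. In GENCODE the genes extend further, HSPE1 from base 197500140 and HSPD1 to base 197516737. The 104 bases between the RefSeq starts (chr2:197500275-197500378, GRCh38, plus strand) therefore lie within both annotated genes. They are printed 5′ to 3′, with the E-box CACGTG, a site read by basic helix-loop-helix factors, in capitals. The E-box was looked for only after the sequences had been seen. A match to the NRF1 motif, which was chosen beforehand, also lies in this stretch and is left in lower case.
HSPE1 and HSPD1: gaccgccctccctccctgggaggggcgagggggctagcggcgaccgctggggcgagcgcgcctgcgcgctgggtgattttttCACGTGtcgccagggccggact

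RefSeq gives HSPD1 a second start, 539 bases from that of HSPE1, and the window before this start held matches to pairs of heat shock factor half-sites. Only windows before RefSeq starts were searched, not the whole locus. The matches occupied bases 245 to 228 before the start and are in capitals in the next stretch (chr2:197500065-197500088, GRCh38, minus strand). This stretch lies downstream of the first RefSeq start of HSPD1, at base 197500274.
HSPD1, second start: attTTCTGGAAAGTTCTGGAAccg

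The stretches before HSPA9 and LONP1 are shown because these were the genes that rose the most. The 150 bases that end at the base before the start are given for HSPA9 (chr5:138575402-138575551, GRCh38, minus strand) and for LONP1 (chr19:5720147-5720296, GRCh38, minus strand), with the E-box again in capitals. The same stretch before CLPX, a member that was not called, is not shown and held no E-box. The end of the HSPA9 stretch, E-box included, lies in the first exon of its canonical GENCODE transcript. RefSeq gives LONP1 a second start, at base 5720452, and the LONP1 stretch, E-box included, lies downstream of it.
HSPA9: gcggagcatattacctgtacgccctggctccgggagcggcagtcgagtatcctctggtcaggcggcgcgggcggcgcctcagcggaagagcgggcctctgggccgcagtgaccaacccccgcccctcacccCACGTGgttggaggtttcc
LONP1: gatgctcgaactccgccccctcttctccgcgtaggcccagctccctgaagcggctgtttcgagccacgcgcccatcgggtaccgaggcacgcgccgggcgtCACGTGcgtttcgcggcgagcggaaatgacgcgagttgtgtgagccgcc

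Windows of 250 bases before a start were read on both strands for 8 of the 10 genes, those with an entry in the RefSeq promoter table of GRCh38.p14. These 8 genes had 10 entries. A gene was counted if any of its entries matched, while the percentages are of single entries, so the units differ. The heat shock pairs GAANNTTC and TTCNNGAA, which overlap in the printed stretch, were found for 1 gene, HSPD1, and are held by 5.78% and 6.62% of all promoters in the table. The C/EBP-ATF motif TGATGNAA was found for none and is held by 3.14%. NRF1 motifs (GCGCANGCG, 6.56% of all promoters) were found for 5 genes, namely HSPD1, HSPE1, DNAJA3, LONP1 (only before its second start) and CLPX. The CCAAT box (32.0%) was found for DNAJA3 and CLPX. The E-box (6.35%) was looked for after the sequences had been seen, and was found for 4 genes, HSPD1, HSPE1, HSPA9 and LONP1. For HSPD1 and HSPE1 the E-box is one site between their starts that lies in both windows, and so is the NRF1 match. A match shows that the letters are present and not that a factor bound there.

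Expression is given as normalised count, the estimated reads of a gene divided by the size factor of its library. The libraries held between 18863863 and 24200576 counts, and the smallest unnormalised count of any member in any library was 666. Counts from genes of the mitochondrial genome made up 5.03 to 5.29% of a library with vehicle, 6.45 to 7.56% at 20 µg/mL, 10.6 to 10.8% at 100 µg/mL and 9.0 to 9.29% at 500 µg/mL. The defining astrocyte markers were at or near 0, with GFAP at most 5.26 normalised counts, S100B at most 5.12 and AQP4 at 0 in every library, while the glial and mesenchymal genes VIM, CD44 and SOX9 were high. In the same list the glial glutamate transporter SLC1A3 had a mean of 690.1 with vehicle and 126.3 at the high dose, and the progenitor gene NES 214.3 and 64.7. Markers of other cell types moved with dose for the neuronal gene SNAP25 (mean 703.7 with vehicle and 166.8 at the high dose), the leukocyte gene PTPRC (274.9 and 84.8) and the macrophage gene CD68 (2864 and 3953), and the part of these genes in the results was not tested. All libraries were of the same cultured line, so these genes do not show that neurons, leukocytes or macrophages were present. In bulk RNA, fewer cells that express a gene and less RNA per cell cannot be told apart.

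With vehicle the members spanned a 15.6-fold range of level per kb of canonical transcript. By this length the folding chamber stood highest, with HSPD1 at 3176 ± 60.5 normalised counts per kb and HSPE1 at 2357 ± 98.6 (SD, n = 3 here and below). HSPA9 came next at 1823 ± 38.9, then YME1L1 at 1131 ± 12.5, TRAP1 at 813.5 ± 14.2 and DNAJA3 at 552.4 ± 15.4. AFG3L2 at 462.9 ± 16.9 and LONP1 at 453.7 ± 13.4 overlapped in range. CLPP at 308.2 ± 27.0 and CLPX at 203.8 ± 4.63 were lowest. No other neighbours in this order overlapped. The SDs do not cover the choice of length. HSPE1 has 557 canonical bases and 1823 bases over all exons, and HSPA9 has 4404 and 9782. Per kb of all exons HSPA9 would already stand above HSPE1 with vehicle, and LONP1 above DNAJA3 and AFG3L2.

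At the high dose the order by canonical length had changed at the top and in the middle. HSPA9, at 3951 ± 61.5 normalised counts per kb, now stood above HSPD1 at 3162 ± 40.4. HSPE1 had come down to 1611 ± 31.3, and LONP1 had moved from the eighth place to the fifth at 1007 ± 17.95, above TRAP1 at 972.4 ± 2.14. AFG3L2, CLPP and CLPX took the last places, and no neighbours in this order overlapped.

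**Figure D1:**
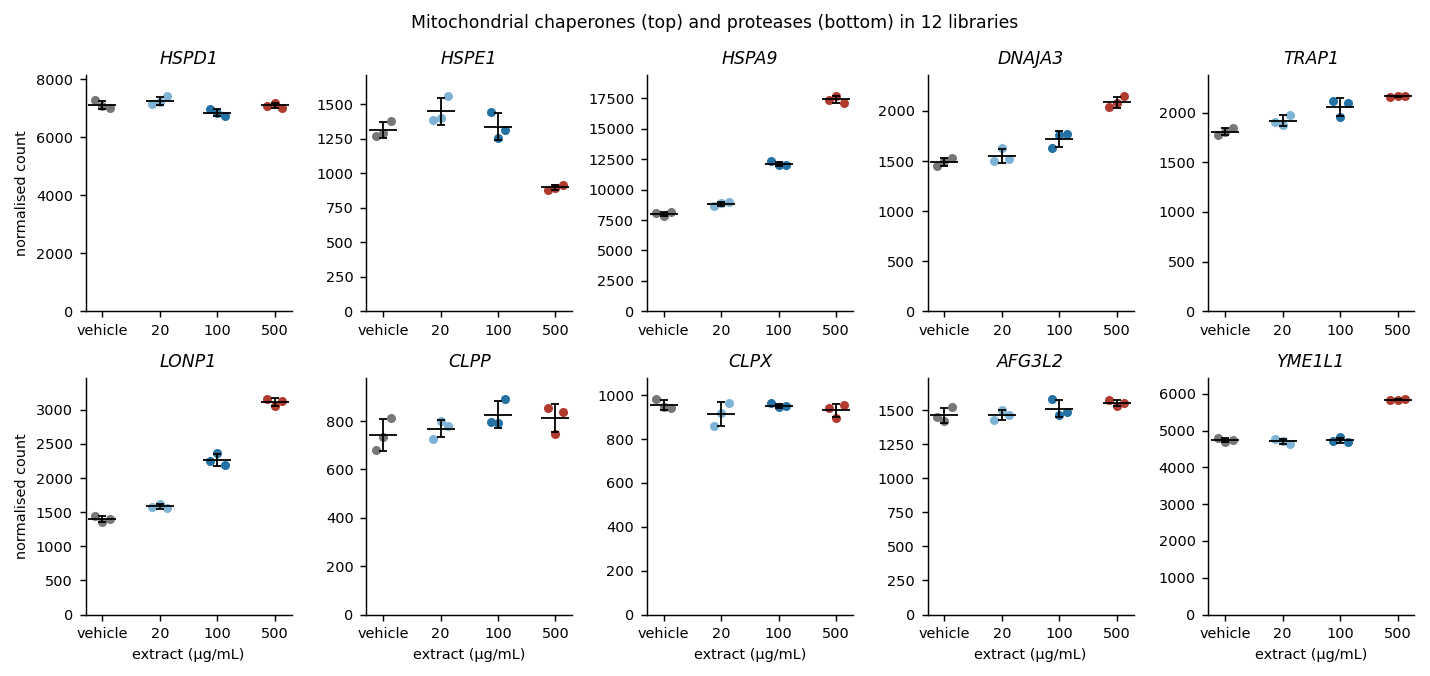
Normalised counts of the 10 genes in each of the 12 libraries, by dose of the extract in µg/mL; points are libraries and black bars show the mean ± SD of 3. HSPA9 and LONP1 climb at each dose, HSPE1 drops and YME1L1 rises at 500 µg/mL only, and the HSPD1 libraries stay between 6747 and 7424.

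Within the set the changes were uneven, with 2 genes that rose over 1.5-fold, several that rose by less, and one that fell. At the high dose 5 of the 10 genes rose (HSPA9, LONP1, DNAJA3, YME1L1 and TRAP1) and 1 fell (HSPE1) at a DESeq2 adjusted p under 0.05. Of the 19453 genes tested 23.9% rose and 22.6% fell by that rule. These include genes of far lower count than the members. With a low-count filter 9377 of 16122 genes passed in either direction, beside 6 of the 10 members. With the further demand of a change over 1.5-fold (a differentially expressed gene, DEG), 2 members were higher, HSPA9 and LONP1, against 8.66% of all genes. The median log2 fold change of the 10 was 0.19, and that of all genes tested was -0.01. In a likelihood ratio test that used every dose, 7 of the 10 differed among the 4 groups, against 45.8% of all genes. The exceptions were CLPP, CLPX and AFG3L2, and HSPD1 lost the call in most fits without a library, as given with its values.

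At the medium dose 4 members rose (HSPA9, LONP1, DNAJA3 and TRAP1) and 0 fell, where 15.1% of the genes tested rose and 14.5% fell. HSPA9 and LONP1 were DEGs there, against 2.34% of genes called higher. At the low dose 2 members rose, again HSPA9 and LONP1, and 0 fell, where 2.05% of genes rose and 1.24% fell. At that dose 0 members were DEGs, against 0.118% of all genes in either direction. From the medium to the high dose 4 members rose further (HSPA9, LONP1, DNAJA3 and YME1L1) and 1, HSPE1, fell, where 21.1% of genes rose and 19.8% fell. No member moved by over 1.5-fold, against 10.2% of genes, though HSPE1, at 0.673 of its medium-dose level, came close. The 3 comparisons with vehicle share the same vehicle libraries.

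**Figure D2:**
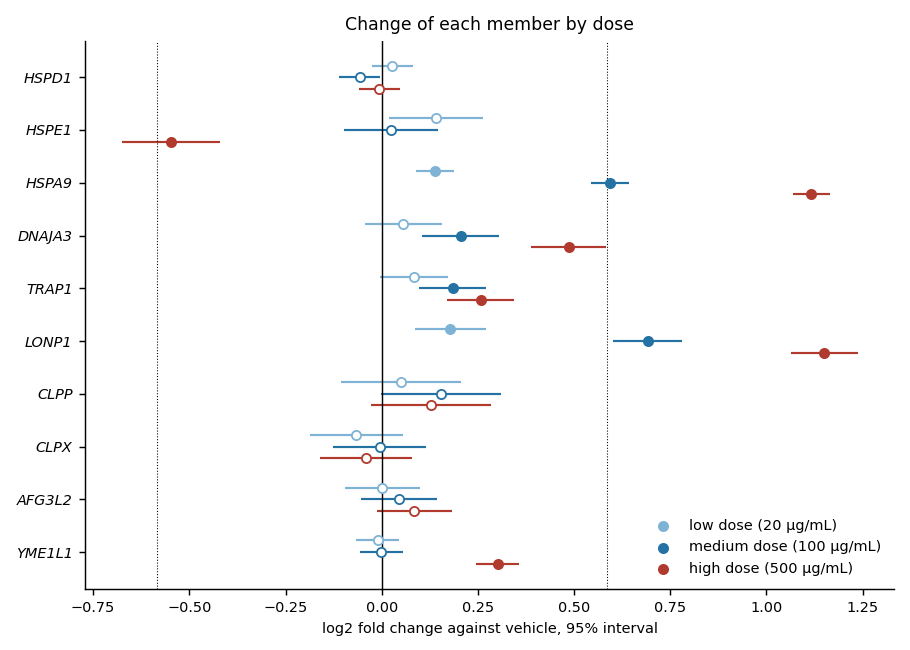
Log2 fold change of each member against vehicle at the low, medium and high dose, with its 95% interval from DESeq2; filled points have an adjusted p under 0.05 and dotted lines mark a 1.5-fold change. HSPA9 and LONP1 step to the right with dose and pass the dotted line at the medium and high dose, HSPE1 at the high dose lies farthest to the left, and the intervals of CLPP, CLPX, AFG3L2 and HSPD1 at the high dose include 0.

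HSPA9, the matrix HSP70 (chromosome 5, 138553756 to 138575675, minus strand), rose at every dose. Its normalised counts were 8113, 7830 and 8139 with vehicle, 8671, 8863 and 8957 at 20 µg/mL, 12312, 11999 and 12016 at 100 µg/mL and 17375, 17680 and 17140 at 500 µg/mL. The 4 groups did not overlap, and each stood above the one before it in dose. Against vehicle HSPA9 rose on the log2 scale by 0.14 at 20 µg/mL (SE 0.0255, DESeq2 adjusted p = 1.14e-05), by 0.59 at 100 µg/mL (SE 0.0251, adjusted p = 5.02e-121) and by 1.12 at 500 µg/mL (SE 0.0247), where DESeq2 returned an adjusted p of 0, below the range of its number format. The high dose was thus 2.17-fold above vehicle. The medium dose, at 1.51-fold, lay just past the threshold for a DEG and its interval, from 0.54 to 0.64 on the log2 scale, reached below that threshold. Without vehicle replicate 2 or without medium replicate 1, the members that were DEGs at the medium dose numbered 1. Between the medium and the high dose HSPA9 rose by 0.52 (adjusted p = 1.11e-101).

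LONP1, the soluble matrix protease (chromosome 19, 5691834 to 5720572, minus strand), took the same course from a lower level. It read 1446, 1363 and 1400 with vehicle, 1583, 1621 and 1555 at 20 µg/mL, 2244, 2360 and 2187 at 100 µg/mL and 3155, 3050 and 3133 at 500 µg/mL. Again no groups overlapped. Its rise was 0.18 on the log2 scale at 20 µg/mL (SE 0.0469, adjusted p = 0.00807), 0.69 at 100 µg/mL (SE 0.0455, adjusted p = 5.39e-50) and 1.15 at 500 µg/mL (SE 0.0445, adjusted p = 4.27e-145), or 2.22-fold. The low-dose call of LONP1 was lost when vehicle replicate 2 was left out (log2 fold change 0.16, adjusted p = 0.143) and when low replicate 2 was (0.16, adjusted p = 0.0763). The 95% intervals of LONP1 and HSPA9 at the high dose overlapped, from 1.06 to 1.24 and from 1.07 to 1.17.

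The genes with the most similar course over the 12 libraries were looked up among 10726 protein-coding genes by Pearson correlation of log2(normalised count + 1), as a description. The libraries form 4 dose groups, so any gene that rises with dose scores high. For HSPA9 they were GDF15 (r = 0.998), a secreted stress cytokine, MICAL2 (0.997), an actin-oxidising enzyme, and SIK1 (0.997), a salt-inducible kinase. GDF15 went from a mean of 78.0 with vehicle to 8795 at the high dose, a far larger rise than that of HSPA9. For LONP1 they were ARHGEF28 (0.999), which read 769.7 with vehicle and 1837 at the high dose, MICAL2 (0.996) and SIK1 (0.996).

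The folding chamber split. HSPD1 (chromosome 2, 197486584 to 197516737, minus strand) read 7285, 7081 and 7027 with vehicle, 7150, 7224 and 7424 at 20 µg/mL, 6961, 6855 and 6747 at 100 µg/mL and 7086, 7196 and 7016 at 500 µg/mL. The high-dose and vehicle libraries overlapped, and the medium-dose libraries lay below both. At the high dose the log2 difference of HSPD1 from vehicle was -0.01, with a 95% interval from -0.06 to 0.05 (adjusted p = 0.885), and at the medium dose -0.06 (adjusted p = 0.0991). Among the 4 groups HSPD1 passed narrowly (likelihood ratio adjusted p = 0.0415), with its highest mean, 7266, at the low dose, and it kept that call in 1 of the 12 fits that left out a library (adjusted p from 0.0469 to 0.28). The 18 numbered HSPD1 pseudogenes in the table held together at most 2.01% as many counts as HSPD1. Its lid HSPE1 (chromosome 2, 197500140 to 197503449, plus strand) read 1270, 1295 and 1375 with vehicle, 1384, 1400 and 1559 at 20 µg/mL, 1442, 1253 and 1315 at 100 µg/mL and 881, 895.5 and 915.7 at 500 µg/mL. The 3 high-dose libraries lay below the other 9.

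HSPE1 fell by 0.55 on the log2 scale at the high dose (SE 0.0647, adjusted p = 2.07e-16), to 0.684 of the vehicle level. From the medium to the high dose it fell by 0.57 (adjusted p = 1.63e-17). The 95% intervals of these falls, from -0.67 to -0.42 and from -0.70 to -0.45, both reached past a 1.5-fold fall. At the low dose its libraries all lay above those with vehicle, by 0.14, with an adjusted p of 0.258. The transcript ratio of lid to chamber, taken within each library per kb so that depth and scaling cancel, was 0.743 ± 0.0433 with vehicle, 0.803 ± 0.0379 at 20 µg/mL, 0.786 ± 0.0490 at 100 µg/mL and 0.510 ± 0.0143 at 500 µg/mL. It differed among the groups in an exact permutation test of the between-group F ratio (adjusted p = 0.00891 over 10 ratios). Of the exon bases of HSPE1 7.4% lie opposite HSPD1 on the other strand. The readthrough gene HSPE1-MOB4 shares 10.5% of the exon bases of HSPE1 and held a mean of at most 4.91 normalised counts in any group. Among the genes most like HSPD1 were ZNF283 (r = 0.921), a zinc finger gene, and LEMD3 (0.887), an inner nuclear membrane protein. HSPD1 stayed between 6747 and 7424 in all libraries, so these correlations follow small differences between libraries. They are also the highest among 10726 genes, a choice that by itself favours high values.

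The J-domain partner and the mitochondrial HSP90 rose by less. DNAJA3 (chromosome 16, 4425805 to 4456775, plus strand) read 1447, 1499 and 1529 with vehicle, 1500, 1631 and 1522 at 20 µg/mL, 1626, 1757 and 1771 at 100 µg/mL and 2041, 2075 and 2148 at 500 µg/mL. The low-dose libraries of DNAJA3 overlapped those with vehicle, and low replicate 2 stood just above medium replicate 1, while the high-dose libraries were above all others. DNAJA3 rose by 0.21 at the medium dose (adjusted p = 0.000404) and by 0.49, or 1.40-fold, at the high dose (SE 0.0501, adjusted p = 3.33e-21). TRAP1 (chromosome 16, 3651639 to 3717553, minus strand) read 1777, 1808 and 1840 with vehicle, 1903, 1870 and 1977 at 20 µg/mL, 2115, 1957 and 2098 at 100 µg/mL and 2157, 2162 and 2166 at 500 µg/mL. Every dosed library of TRAP1 was above every vehicle library. Its log2 fold change was 0.18 at the medium dose (adjusted p = 0.000285) and 0.26 at the high dose (SE 0.0444, adjusted p = 3.28e-08), and the step between these doses, 0.07, had an interval from -0.01 to 0.16 (adjusted p = 0.185). Of the exon bases of TRAP1 28.5% lie opposite DNASE1 on the other strand, and DNASE1, at 322.2 with vehicle and 339.3 at the high dose, had a high-dose adjusted p of 0.567.

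Among the membrane proteases the i-AAA enzyme moved and the m-AAA subunit did not pass the test. YME1L1 (chromosome 10, 27110111 to 27155266, minus strand), which acts on the intermembrane space side, read 4790, 4686 and 4745 with vehicle, 4765, 4723 and 4626 at 20 µg/mL, 4711, 4816 and 4681 at 100 µg/mL and 5824, 5843 and 5852 at 500 µg/mL. The first 3 groups overlapped and the high-dose libraries stood apart above them. YME1L1 rose by 0.30 at the high dose (SE 0.0282, adjusted p = 1.82e-25), and its interval at the medium dose ran from -0.06 to 0.06. AFG3L2 (chromosome 18, 12328944 to 12377227, minus strand), on the matrix side, read 1447, 1419 and 1523 with vehicle and 1573, 1528 and 1552 at the high dose. Its low- and medium-dose libraries lay between 1431 and 1580. At the high dose AFG3L2 differed by 0.08 on the log2 scale, with an interval from -0.01 to 0.18 (DESeq2 adjusted p = 0.164), with the high-dose libraries just above those with vehicle, and edgeR gave an adjusted p of 0.0489. Of its exon bases 11.7% lie opposite TUBB6, a tubulin gene that fell by 0.69 at the high dose (adjusted p = 2.06e-49). Of the exon bases of YME1L1 6.04% lie opposite MASTL, a mitotic kinase gene that fell by 0.40 there (adjusted p = 1.53e-05). Whether the counting used the strand of the reads is not stated. Before rounding, the estimated reads were whole numbers in 0 of 12 libraries for AFG3L2 and YME1L1. They were whole in 12 for LONP1 and CLPP, with 0.835% and 0.991% of exon bases opposite another gene. The same held for HSPA9, DNAJA3 and CLPX, with 0% opposite. Whether reads were divided with genes on the other strand was not tested.

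The ClpXP pair did not pass the test at any dose. CLPP (chromosome 19, 6361531 to 6370242, plus strand), the peptidase, read 682.5, 734.2 and 811.8 with vehicle, 728.1, 799.7 and 780.6 at 20 µg/mL, 795.2, 792.2 and 890.5 at 100 µg/mL and 853.2, 747.8 and 837.1 at 500 µg/mL. CLPX (chromosome 15, 65148219 to 65185342, minus strand), the unfoldase, read 981.7, 945.3 and 942.9 with vehicle, 860.8, 917.0 and 965.8 at 20 µg/mL, 963.2, 945.9 and 949.8 at 100 µg/mL and 941.2, 896.4 and 954.0 at 500 µg/mL. All dosed groups of both genes overlapped the vehicle group. At the high dose the log2 fold change of CLPP was 0.13, with an interval from -0.03 to 0.28 (adjusted p = 0.186), and that of CLPX was -0.04, with an interval from -0.16 to 0.08 (adjusted p = 0.642). These intervals leave out a rise or a fall of 1.5-fold for both genes.

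**Figure D3:**
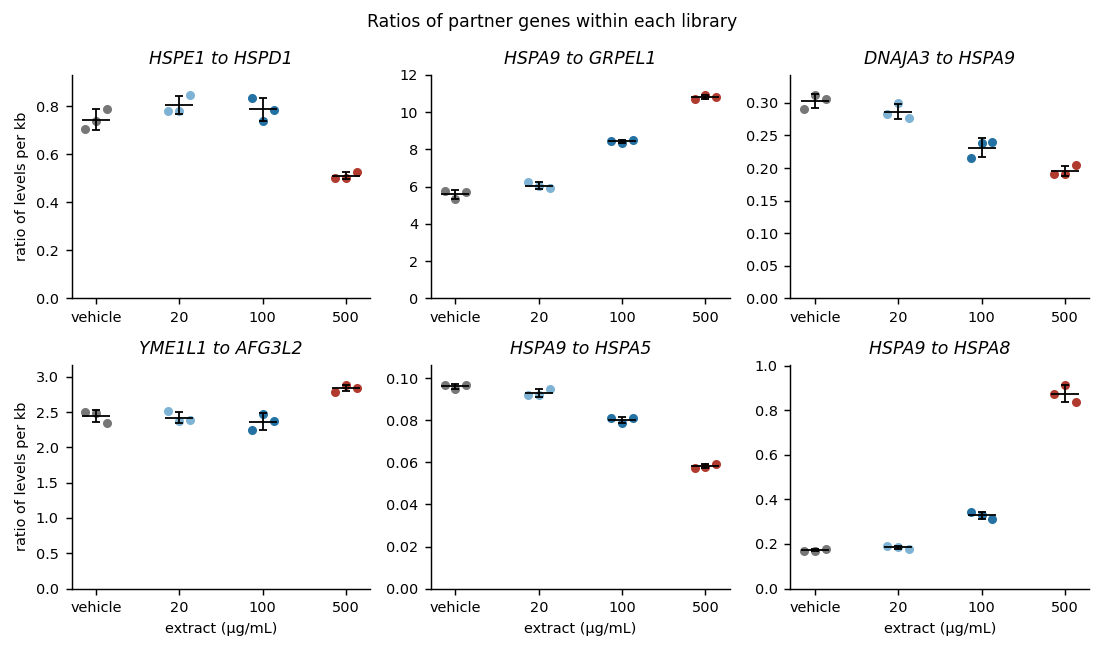
Ratios of levels per kb between partner genes within each library, by dose of the extract in µg/mL; points are libraries and black bars show the mean ± SD of 3. HSPE1 to HSPD1 drops at 500 µg/mL, HSPA9 to GRPEL1 climbs with dose, DNAJA3 to HSPA9 and HSPA9 to HSPA5 come down, YME1L1 to AFG3L2 is higher at 500 µg/mL, and HSPA9 to HSPA8 goes from 0.173 to 0.874.

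Ratios between partners were also taken within each library. In all 10 ratios were tested by exact permutation over 369600 assignments of the libraries to groups, and 9 had an adjusted p under 0.05. Whether other gene pairs would pass as often was not tested. Over all genes 45.8% differed among the 4 groups in the likelihood ratio test. Most of the ratios hold HSPA9, TRAP1, HSPE1 or YME1L1, which DESeq2 had already called. HSPA9 to its exchange factor GRPEL1 went from 5.59 ± 0.236 with vehicle to 6.05 ± 0.174, 8.42 ± 0.0939 and 10.8 ± 0.103 at the low, medium and high dose (adjusted p = 0.000162). DNAJA3 to HSPA9 came down from 0.303 ± 0.0110 to 0.287 ± 0.0121, 0.232 ± 0.0140 and 0.196 ± 0.00743 (adjusted p = 0.000217). The other exchange factor, GRPEL2, was not among the ratios and is given with its list. YME1L1 to AFG3L2 was 2.45 ± 0.0829 with vehicle and 2.84 ± 0.0463 at the high dose (adjusted p = 0.0127). AFG3L2 to SPG7, its partner in the m-AAA protease, was 1.30 ± 0.0395 and 1.51 ± 0.0652 (adjusted p = 0.0115), and SPG7 itself fell by 0.13 (adjusted p = 0.0489). CLPX to CLPP was 0.665 ± 0.0712 with vehicle and 0.589 ± 0.0248 at the high dose, with an adjusted p of 0.21, and without vehicle replicate 3 all 10 ratios passed. The smallest p this design allows is 6.494e-05, and it was reached by HSPA9 to GRPEL1, HSPA9 to HSPA5 and both TRAP1 ratios.

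The matrix HSP70 and HSP90 moved between their paralogues of the endoplasmic reticulum and the cytosol. HSPA5 (BiP), the HSP70 of the endoplasmic reticulum, rose from 74313 ± 817 normalised counts with vehicle to 84547 ± 1061, 134215 ± 2215 and 266400 ± 7890 at the low, medium and high dose. HSPA8, the constitutive cytosolic HSP70, went the other way, from 23930 ± 486 with vehicle to 10243 ± 290 at the high dose (log2 fold change -1.22, adjusted p = 3.22e-249). HSPA9 to HSPA5 therefore came down from 0.0962 ± 0.00100 to 0.0582 ± 0.00100 (adjusted p = 0.000162) and HSPA9 to HSPA8 went up from 0.173 ± 0.00437 to 0.874 ± 0.0383 (adjusted p = 0.000217). TRAP1 to HSP90B1, the HSP90 of the endoplasmic reticulum, came down from 0.0720 ± 0.00264 to 0.0516 ± 0.000481, and TRAP1 to the cytosolic HSP90AB1 went up from 0.0656 ± 0.000615 to 0.0912 ± 0.00226 (adjusted p = 0.000162 for each). In the list of 11 paralogues from other compartments 2 rose at the high dose, HSPA5 and HSP90B1, and 8 fell, with a median of -0.32, where 23.9% of all genes rose and 22.6% fell. At the low dose 5 of them rose and 0 fell, where 2.05% of all genes rose and 1.24% fell. The inducible cytosolic HSP70 HSPA1A rose by 0.17 at the low dose (adjusted p = 0.0211) and fell by 1.30 at the high dose (adjusted p = 5.24e-124), although HSPA1A and HSPA1B are nearly identical and their reads may have been split between them.

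**Figure D4:**
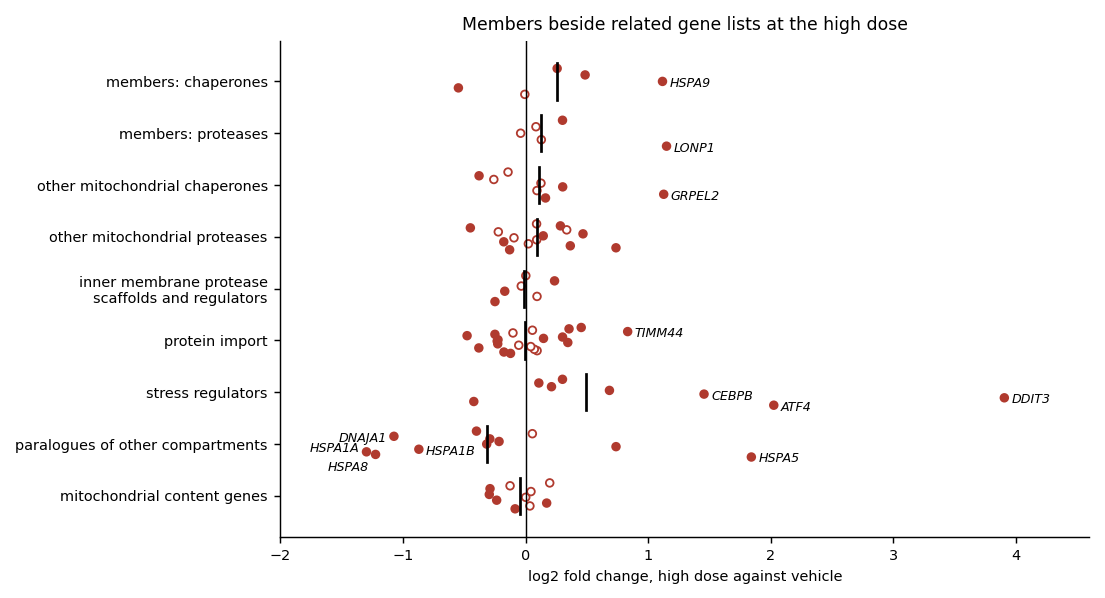
Log2 fold change at the high dose against vehicle for every gene of each list; filled points have a DESeq2 adjusted p under 0.05, open points do not, and black bars are the medians of the lists. HSPA9 and LONP1 lie right of the other members, GRPEL2 and TIMM44 lead their lists, DDIT3 at 3.91 lies farthest to the right, and HSPA8, HSPA1A, HSPA1B and DNAJA1 of the cytosol lie farthest to the left.

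The other lists are read against the 23.9% of all genes that rose and the 22.6% that fell at the high dose. Of 8 other mitochondrial chaperones 3 rose and 1 fell there, with a median of 0.11. GRPEL2, the second exchange factor of HSPA9, rose by 1.13 (SE 0.0731, adjusted p = 2.77e-52), from 469.7 ± 14.2 with vehicle to 1026 ± 9.35, beside 1.12 for HSPA9, whereas GRPEL1 rose by 0.16 (adjusted p = 0.0172). CLPB, an intermembrane space disaggregase, rose by 0.30 (adjusted p = 0.0013), and DNAJC11, of the cristae scaffold, fell by 0.38 (adjusted p = 1.05e-14). Of 14 other mitochondrial proteases 5 rose and 3 fell, with a median of 0.09. OMA1, the stress-activated inner membrane protease, rose by 0.74 (adjusted p = 1.66e-14), XPNPEP3, a matrix aminopeptidase, rose by 0.47 (adjusted p = 9.19e-08) and ATP23, an inner membrane metalloprotease, fell by 0.45 (adjusted p = 0.00587). OMA1 read 311.4 ± 11 with vehicle and 518.4 ± 30.9 at the high dose.

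The counts for scaffolds, import and mitochondrial content genes stand beside the same shares, 23.9% higher and 22.6% lower over all genes. Of 6 scaffolds and regulators of the inner membrane proteases 1 rose and 2 fell. PHB1, a prohibitin that rings the m-AAA protease, fell by 0.25 (adjusted p = 2.32e-12), STOML2, which binds YME1L1, fell by 0.17 (adjusted p = 0.000241), and GHITM, an inner membrane protein, rose by 0.24 (adjusted p = 4.55e-12). Of 20 import genes 6 rose and 8 fell, with a median of -0.01. TIMM44, which tethers HSPA9 to the import channel, rose by 0.83 (adjusted p = 4.3e-34), from 578.2 ± 15.5 to 1029 ± 16.5 normalised counts, CHCHD4, the import oxidoreductase of the intermembrane space, rose by 0.45 (adjusted p = 8.4e-06), and TIMM21, a subunit of the inner membrane import channel, fell by 0.48 (adjusted p = 4.39e-10). Of 10 genes that track mitochondrial content 1 rose and 4 fell, with a median of -0.04. ATP5F1A of the ATP synthase fell by 0.30 (adjusted p = 7.06e-17), TFAM, which packs mitochondrial DNA, fell by 0.29 (adjusted p = 4.16e-07), and VDAC3 of the outer membrane fell by 0.24 (adjusted p = 4.41e-06).

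Of 8 regulators linked to the response 7 rose at the high dose and 1 fell, with a median of 0.49, beside 23.9% and 22.6% of all genes. ATF4 rose from 2059 ± 34.3 normalised counts with vehicle to 2594 at 20 µg/mL (adjusted p = 2.66e-14), 5571 at 100 µg/mL and 8380 ± 283 at 500 µg/mL, a log2 fold change of 2.03. DDIT3, which encodes CHOP, rose from 514.7 ± 39.3 to 631.3 (adjusted p = 0.00252), 1853 and 7699 ± 511, a log2 fold change of 3.91. CEBPB rose by 1.46 (adjusted p = 2.55e-18) and HSF1 by 0.68 (adjusted p = 2.43e-40). ATF5, the factor most often named for the mitochondrial branch, fell by 0.42 (SE 0.0804, adjusted p = 6.64e-07), from 548.1 ± 20.9 to 409.5 ± 19.7. ATF4 and DDIT3, like HSPA9 and LONP1, rose at every dose. ATF4, DDIT3 and CEBPB also serve the stress response of the endoplasmic reticulum, where HSPA5 is the standard marker, and these genes cannot tell both responses apart.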

How the data were processed

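Strand-specific mRNA libraries of SW1783 cells were sequenced as 100-base paired ends. The authors checked, trimmed, aligned and counted the reads; per the labels, the submitters' processing notes name FastQC 0.11.9, Trim Galore 0.6.5, STAR 2.7.3a and RSEM 1.3.3 on GRCh38. The deposited values are RSEM expected counts per gene, which divide shared reads among genes and need not be whole (8.75% were not). Pseudogene copies of HSPD1 and HSPE1 can therefore take reads from them. They were made whole by rounding, and every column was matched to a library by its label.

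Symbols and coordinates came from GENCODE release 44, which held 93.2% of the IDs and 99.9% of the counts. Differences were tested in DESeq2 1.42.0 (R 4.3.3, Wald test, two-sided) over all 12 libraries with group as the term, the study naming the same test, with Benjamini-Hochberg adjustment over all genes, independent filtering at 0.05 and intervals of 95%. The lowest mean count that received an adjusted p was 1.72 for 500 µg/mL, 18.3 for 100 µg/mL and 263 for 20 µg/mL. The likelihood ratio test used the same fit, and edgeR 4.0.16 was an alternative. Levels per kb divide by the canonical transcript, so the order of genes and the ratios between them depend on that choice. Ratios were tested by exact two-sided permutation of the between-group F, adjusted over 10 ratios. The fit was first run on simulated counts with changes of a set size in the high-dose group alone and the same dispersion for every gene. That setting is simpler than these data and does not check smaller changes. Replicates differed by more than counting noise (chi-square per degree of freedom 2.06 to 3.77).

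Named genes were all members, the partners in the ratios, the 3 genes of each list with the largest change at the high dose among those with an adjusted p under 0.05 and a mean of at least 100, and the 3 genes most correlated with HSPD1, HSPA9 and LONP1; ATF5, HSF1 and the genes overlapping a member were named after their values were seen. One gene that the correlation rule names for HSPD1 is not reported here. The members and lists were chosen with earlier results of these data known. Promoter sequence is from RefSeq (GRCh38.p14), and CLPP and YME1L1 had no entry.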

Additional observations from a re-analysis of the deposited data

How the results depend on the processing

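Alternatives were edgeR, other scalings, filters and thresholds, dropping mitochondrial genome counts, fitting only the groups compared, a replicate block and leaving out each library. No called change of a member reversed in any of them. Of 560 values for single members, 555 kept their side of the threshold, and 17, all uncalled and within 0.0324 of 0 on the log2 scale, changed sign. LONP1 at the low dose lost its call with only the groups compared (log2 fold change 0.18, adjusted p = 0.0501) and without vehicle or low replicate 2. AFG3L2 at the high dose gained one in edgeR, and CLPP at the medium dose gained one without vehicle replicate 3 (0.22, adjusted p = 0.0454). The count of DEGs among the members at the medium dose was 0 when the test was against the 1.5-fold threshold itself, and 1 to 2 over the left-out libraries, with 1 without vehicle replicate 2 or medium replicate 1. Members past the adjusted p at the low dose numbered 1 with only the groups compared, and 1 to 2 over the left-out libraries. From the medium to the high dose 0 to 1 members were DEGs over the left-out libraries, with 1 without medium replicate 2 or high replicate 3.

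Over all genes, edgeR gave 809 DEGs at the medium dose against 537, and 30 at the low dose against 11. The labels give no meaning to the replicate numbers that groups share. Of 18 same-numbered pairs 5 correlated over 0.1, all between dosed groups, and 0 of 36 other pairs did, while 6 of 12 libraries correlated best with their own number. Every same-numbered pair of the low and medium dose passed (0.158, 0.124 and 0.193). These groups were not compared directly, but both enter the tests among the 4 groups, and the ratio test had no block. In each direct comparison made here some pair did not pass, so the fit without the block was kept. With a replicate block the members' DEGs were 2 for high, 2 for medium and 0 for low against vehicle and 0 for high against medium, and in that order 6, 4, 2 and 5 members passed the adjusted p, which changed no count. Among the 4 groups 6 members differed under the block against 7. The gene lost was HSPD1 there, in edgeR and without independent filtering, where the adjusted p reached 0.0954. The ratios that passed numbered 9 to 10 over the left-out libraries. Every member had at least 666 counts per library, and standard errors at the high dose ran from 0.0247 for HSPA9 to 0.0792 for CLPP, among the members with the highest and lowest counts.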
